A study of Homo sapiens with 12 samples.

Results

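CDKN1A, GDF15 and AEN are 3 target genes of the transcription factor p53, out of 45320 genes counted in 12 RNA sequencing libraries of Ishikawa cells, a human line that derives from endometrial adenocarcinoma. They were selected on their RNA levels in cells with a hairpin against ARID1A relative to control cells, where CDKN1A and GDF15 were lower and AEN was higher. The difference between the hairpin arms is therefore given for these genes as a description, without a test. All 3 genes were among the 17020 that passed the filter on low counts.

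The libraries formed 6 groups of 2. Cells with the control hairpin (shNC) and cells with the ARID1A hairpin (shARID1A) each received DMSO, 17-beta-estradiol (E2) at 10 nM, or this dose of E2 together with fulvestrant at 100 nM. Fulvestrant blocks the estrogen receptor and leads to its degradation. Treatment lasted 8 h in every group, in phenol red-free medium with charcoal-treated serum, which lowers steroid hormones. In the labels the zeros of the fulvestrant dose are letters, taken here to mean 100 nM. The number of hairpins or lines per arm and the origin of a group's libraries from separate or shared cultures are not given. The p-values below thus reflect only the spread between libraries, possibly a technical one. Loss of ARID1A RNA cannot be told apart from other differences between the lines.

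p53 is activated by DNA damage and other stresses and switches on genes for cell cycle arrest, apoptosis and secreted signals. CDKN1A encodes p21, which binds and inhibits cyclin-dependent kinases and holds cells before S phase. GDF15 encodes a secreted cytokine of the TGF-beta superfamily that signals through GFRAL and RET and is also induced by ATF4 in the integrated stress response. AEN encodes a nuclear exonuclease of the ISG20 family that takes part in apoptosis after p53 activation. ARID1A is a DNA-binding part of SWI/SNF, a complex that remodels chromatin, and endometrial carcinomas often carry mutations in it.

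The 3 genes start in promoters of different make-up, shown here because p53, SWI/SNF and the estrogen receptor all act through such regions. Each line gives the 250 bases before the start site in RefSeq, build GRCh38.p14, plus strand, 5′ to 3′. Reads of CDKN1A and GDF15 were also counted over exons upstream of the start of the main coding transcript. Their counts thus need not come from these start sites alone. The windows are chr6:36678464-36678713 for CDKN1A, chr19:18385908-18386157 for GDF15 and chr15:88621090-88621339 for AEN. Capitals mark GC boxes (GGGCGG) in CDKN1A, the TATA element (TATAAA) in GDF15, and the best match to the 20-base p53 consensus in AEN.
CDKN1A: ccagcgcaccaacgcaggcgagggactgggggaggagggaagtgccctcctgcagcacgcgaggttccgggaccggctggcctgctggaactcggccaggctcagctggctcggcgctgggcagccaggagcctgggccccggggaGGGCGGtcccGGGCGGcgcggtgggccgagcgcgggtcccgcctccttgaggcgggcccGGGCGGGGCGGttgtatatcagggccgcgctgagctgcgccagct
GDF15: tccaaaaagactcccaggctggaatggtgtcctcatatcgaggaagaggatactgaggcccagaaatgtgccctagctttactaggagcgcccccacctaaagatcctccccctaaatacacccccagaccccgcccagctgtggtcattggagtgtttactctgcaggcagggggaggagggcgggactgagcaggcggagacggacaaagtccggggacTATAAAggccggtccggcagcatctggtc
AEN: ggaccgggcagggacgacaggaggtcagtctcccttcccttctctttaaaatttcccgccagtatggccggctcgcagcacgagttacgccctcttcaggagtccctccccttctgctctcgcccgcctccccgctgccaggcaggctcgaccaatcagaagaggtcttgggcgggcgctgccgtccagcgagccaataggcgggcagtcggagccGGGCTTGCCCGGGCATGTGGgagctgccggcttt

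Motifs were searched on both strands of these 250 bases and the 50 bases that follow, and in the same 300-base window of 35114 promoters. The CDKN1A window had a GC content of 76.4% in the stretch shown and held 4 GC boxes, of which the last pair overlap by their end base. The GDF15 window held 2 GC boxes and the AEN window 1, left in lower case in their lines. A GC box was present in 45% of all promoters. The GDF15 stretch had a GC content of 58.4% and held TATAAA starting 29 bases before the start site, a motif found in 11.5% of promoters. In AEN (GC content 66%), the marked 20 bases start 34 bases before the start site and match the p53 consensus with 2 mismatches. A match required both CWWG cores (W is A or T) intact, no spacer and at most 2 mismatches elsewhere. Such a match was held by 0.157% of promoters. The first 10 of the marked bases are an exact match to the p53 decamer, present in 6.63% of promoters. An E-box (CANNTG, in 68.7%) overlaps the rest. Neither p53 pattern matched in the CDKN1A or GDF15 window. The p53 sites known for CDKN1A lie further upstream than this window. An arm of the estrogen response element (AGGTCA, in 13.8% of promoters) occurred in AEN 229 bases before the start site, and the ATF4 element searched (TGATGNAAN, in 3.61%) matched in none of the 3 windows. A CCAAT box (CCAAT, in 34.6%) occurred 2 times in AEN, 1 time in GDF15 and 0 times in CDKN1A. These matches are letters in a window and say nothing about binding in these cells.

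Each library held 28810351 to 38657162 counts. ARID1A itself was measured at 109.9 to 123.3 CPM (library-size-scaled counts, with TMM factors) in the 6 shNC libraries and at 53.8 to 61.7 CPM in the 6 shARID1A libraries, so the hairpin labels matched its RNA in all 12. Of 9 epithelial markers, 8 were in the files, and their summed level was 948.8 to 1044 CPM in shNC and 605.4 to 657.9 CPM in shARID1A. KRT8 and KRT18, keratins of simple epithelia, made up most of it. EPCAM (mean 1.52 and 0.75 CPM) and CDH1 (0.27 and 0.21 CPM), both defining epithelial markers, were near 0. The 4 immune markers summed to at most 0.769 CPM in any library, CD3E being at 0 in all 12, and the 2 endothelial markers in the files to at most 0.264 CPM. The 5 stromal markers summed to 32.2 to 43.9 CPM in shNC and 50.0 to 53.2 CPM in shARID1A, most of it COL1A1, a collagen chain. The other stromal markers that passed the filter were lower, the proteoglycan DCN at a mean of 1.17 and 0.17 CPM (called in all 3 treatments) and the receptor PDGFRB at 6.32 and 4.32 CPM (called with E2 plus fulvestrant alone), and the median log2 fold change of these 3 was -0.58, -0.40 and -0.67. The epithelial and stromal sums moved with the hairpin arm, as did the 3 genes, and their part in the results was not tested. In bulk RNA, fewer cells of a type and less RNA per cell cannot be told apart.

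The reads counted for the 3 genes covered very different parts of their transcripts. CDKN1A lies on the plus strand of chromosome 6 (hg19, 36644305 to 36654111), GDF15 on that of chromosome 19 (18485562 to 18499294) and AEN on that of chromosome 15 (89164568 to 89175512). For GDF15 the authors' annotation counted 800 exonic bases that include only 199 of the 1200 bases (16.6%) of its main coding transcript in GENCODE 29. The counted exons match, end to end, a pair of non-coding processed transcripts of the gene. Those at 0 to 251, 7598 to 7695 and 11165 to 11320 bases from the first counted base lie upstream of the main coding transcript. That transcript starts at base 11406 on this scale. For CDKN1A 1107 of the 2180 bases (50.8%) of the main coding transcript were counted, and the counted exons also match 3 non-coding processed transcripts. AEN was counted over 5976 bases that hold 98.7% of the main coding transcript and also the intron sequence of a retained-intron transcript of 5039 bases. Over 13547 genes with such a comparison, the median share counted was 84.5%, and 28.9% of genes were under 50%. The GDF15 and CDKN1A values below are thus read from part of the coding RNA, with exons of other transcripts. The AEN values include introns. Some genes compared below were also counted in part, such as CDKN2B (26.7%), CDK1 (28.5%), DRAM1 (39.2%) and CMBL (41.9%). Others were counted nearly in full, such as PMAIP1 (100%) and ATR (99.1%).

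**Figure D1:**
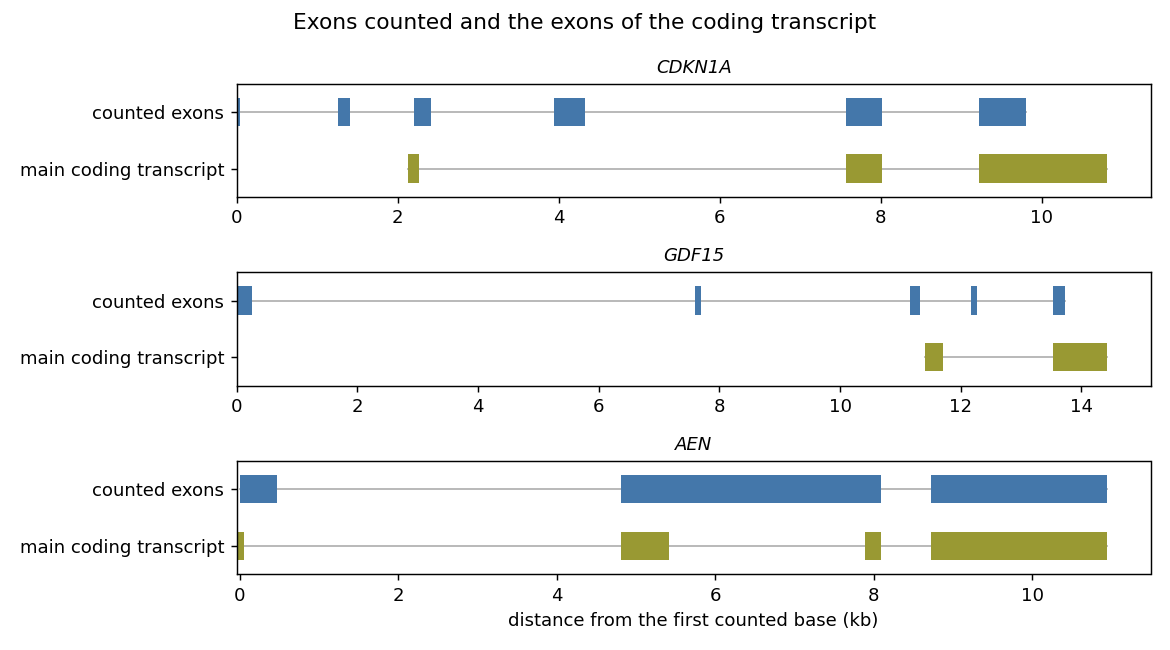
Exons over which reads were counted (upper bars, from the count files) and exons of the main coding transcript in GENCODE 29 (lower bars) for each gene, against distance in kb from the first counted base. The 2 builds were aligned by 1 constant shift per gene. Little of the GDF15 coding transcript (16.6%) lies under counted exons, against 50.8% for CDKN1A and 98.7% for AEN.

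CDKN1A, the cell cycle inhibitor, was the most abundant of the 3. In shNC its level was 134.4 and 127.7 CPM in the DMSO libraries, 134.6 and 124.4 CPM with E2, and 131.7 and 118.9 CPM with E2 plus fulvestrant. In shARID1A it was 79.2 and 82.7 CPM with DMSO, 79.5 and 84.6 CPM with E2, and 71.1 and 70.8 CPM with E2 plus fulvestrant. Every shARID1A library lay below every shNC library, as for 10.6% of all genes tested, and within an arm the DMSO and E2 libraries overlapped. The means over treatments were 128.6 ± 6.18 CPM in shNC and 78.0 ± 5.82 CPM in shARID1A (SD, n = 6 libraries). These levels rest on 3710 to 4428 counts per shNC library and 2071 to 3130 per shARID1A library. Ordered by their means, the shNC groups with DMSO, E2 and E2 plus fulvestrant came first and overlapped. Next came shARID1A with E2 and with DMSO, which overlapped. Last came shARID1A with E2 plus fulvestrant, whose libraries lay below all others. The share of all genes with a group that lay below all others was not computed.

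GDF15, the secreted stress cytokine, was the least abundant by CPM. Its shNC levels were 15.7 and 14.1 CPM with DMSO, 18.3 and 15.1 CPM with E2, and 13.2 and 13.8 CPM with E2 plus fulvestrant. Its shARID1A levels were 7.14 and 7.72 CPM with DMSO, 7.57 and 7.87 CPM with E2, and 5.08 and 6.89 CPM with E2 plus fulvestrant. Every shARID1A library lay below every shNC library, as for 10.6% of all genes tested. Within each arm the E2 plus fulvestrant libraries lay below the E2 and DMSO libraries, as for 1.33% of all genes. The means over treatments were 15.0 ± 1.82 CPM and 7.04 ± 1.03 CPM (SD, n = 6). With 419 to 573 counts per library in shNC and 148 to 291 in shARID1A, GDF15 had the widest spread within groups, a pooled SD of 0.16 on the log2 CPM scale against 0.07 for CDKN1A and 0.05 for AEN. The order of its group means was E2, DMSO, E2 plus fulvestrant in each arm, and the E2 and DMSO libraries overlapped within both arms.

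AEN, the apoptosis nuclease, was higher in the knockdown arm. It measured 57.2 and 56.5 CPM with DMSO, 56.2 and 54.1 CPM with E2, and 59.7 and 55.5 CPM with E2 plus fulvestrant in shNC. In shARID1A it measured 72.0 and 74.1 CPM with DMSO, 78.0 and 77.5 CPM with E2, and 75.5 and 69.6 CPM with E2 plus fulvestrant. Every shARID1A library lay above every shNC library, as for 11.4% of all genes tested, the reverse of CDKN1A and GDF15. The means were 56.5 ± 1.87 CPM and 74.4 ± 3.22 CPM (SD, n = 6), from 1677 to 1906 counts per library in shNC and 2063 to 2867 in shARID1A. The group means ran from shARID1A with E2, whose libraries lay above all others, through shARID1A with DMSO and with E2 plus fulvestrant, which overlapped. Next came shNC with E2 plus fulvestrant, with DMSO and with E2. In shNC the E2 plus fulvestrant libraries overlapped both other groups, and the E2 libraries lay below the DMSO libraries. The share of all genes with a group that lay above all others was not computed.

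**Figure D2:**
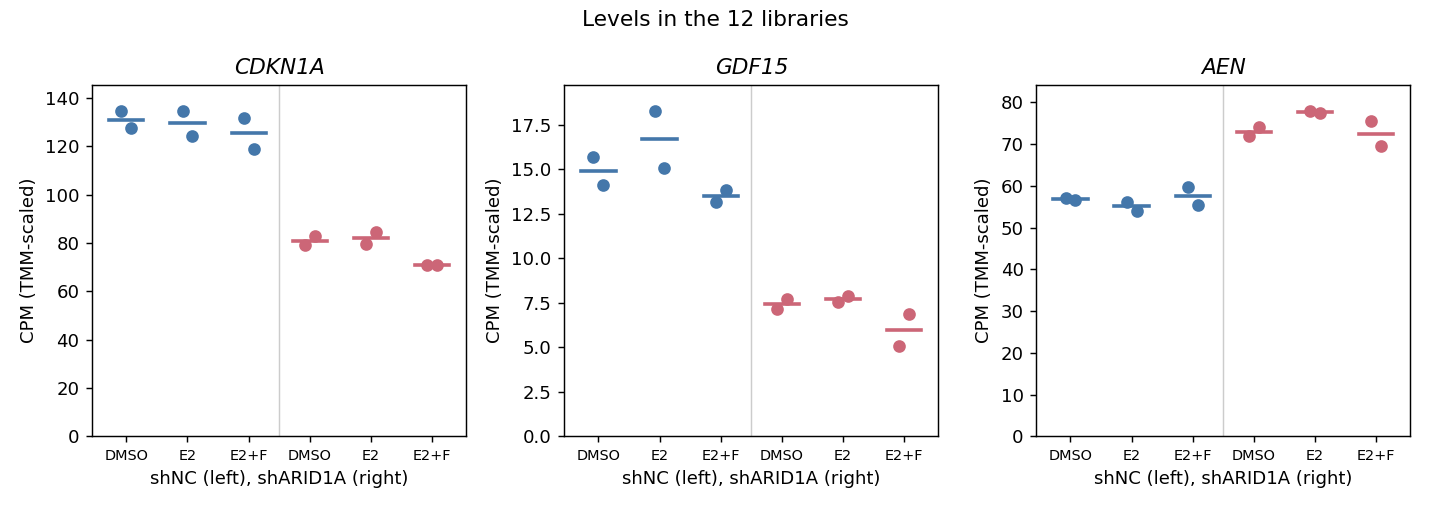
Level of each gene in CPM (TMM-scaled, axis from 0) in the 12 libraries, as points, with the mean of each group of 2 as a line. shNC is blue, shARID1A is red, and E2+F is E2 plus fulvestrant. The shARID1A points lie below all shNC points for CDKN1A (70.8 to 84.6 against 118.9 to 134.6 CPM) and GDF15, and above them for AEN.

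As fitted log2 fold changes of shARID1A against shNC, each with its standard error (SE), CDKN1A stood at -0.70 (SE 0.07) in DMSO, -0.66 (SE 0.07) in E2 and -0.82 (SE 0.07) in E2 plus fulvestrant. GDF15 stood at -1.01 (SE 0.15), -1.10 (SE 0.14) and -1.17 (SE 0.17), the lowest values of the 3 genes. AEN stood at 0.36 (SE 0.07), 0.50 (SE 0.07) and 0.33 (SE 0.07). In the 3 treatments edgeR called 19.2%, 27.2% and 24.2% of the 17020 genes at an adjusted p under 0.05 in this contrast, and 22% of all genes had arms that did not overlap over the 12 libraries. Since this contrast chose the 3 genes, nothing is read from their place in that background. The E2 plus fulvestrant value of GDF15 rested on a pair of libraries that differed from each other, and was -1.41 or -0.97 with 1 of the shARID1A libraries of that treatment left out.

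The genes were chosen for differences in opposite directions, so the ratios of CDKN1A and GDF15 to AEN separate the arms by that choice. The CPM ratio of CDKN1A to AEN was 2.14 to 2.40 in shNC and 0.941 to 1.12 in shARID1A. That of GDF15 to AEN was 0.221 to 0.325 in shNC and 0.0673 to 0.104 in shARID1A. CDKN1A and GDF15 did not keep a fixed ratio either, at 7.36 to 9.99 in shNC and 10.3 to 14.0 in shARID1A, the range of shARID1A lying above that of shNC. Levels were compared between genes per kilobase of counted exon (RPKM). The medians in shNC were 71.2 for CDKN1A, 18.3 for GDF15 and 9.43 for AEN, and in shARID1A they were 43.6, 9.19 and 12.5. On this scale GDF15 stood above AEN in shNC, and AEN above GDF15 in shARID1A, with ranges that did not overlap (16.5 to 22.9 against 9.05 to 9.99 RPKM, and 6.35 to 9.83 against 11.7 to 13.0 RPKM). This order depends on which exons were counted, and its change between the arms is likewise tied to the choice of genes.

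The treatments were compared next, a contrast that did not enter the choice of genes. The question was whether estradiol, or blocking its receptor, changed the 3 genes, and whether either did so differently in the arms. edgeR called 0 of the 30 tests (10 contrasts for each gene) at an adjusted p under 0.05. DESeq2 called 0 of the 25 for which it gave an adjusted p, and gave none for 5, among them GDF15 for E2 plus fulvestrant against E2 averaged over the arms. Of these 30, 5 had an unadjusted p under 0.05, 3 for CDKN1A and 2 for GDF15. Few genes of any kind were called by edgeR, 0.00588% of those tested for E2 against DMSO averaged over the arms and 0.0646% for E2 plus fulvestrant against E2 averaged over the arms. In shNC the shares were 0.00588% for E2 against DMSO, 0.00588% for E2 plus fulvestrant against E2 and 0.0118% for E2 plus fulvestrant against DMSO, and in shARID1A they were 0.0235%, 0.00588% and 0%. For the differences between arms they were 0.0294% (E2) and 0.0118% (fulvestrant). DESeq2 called 0.00588% and 1.73% in the averaged contrasts, 0.00588%, 0.0118% and 0.0999% in shNC, 0.0353%, 0.106% and 0% in shARID1A, and 0.094% and 0.00588% for the differences. The share of all genes with an unadjusted p under 0.05 was 4.09% and 14.6% in the averaged contrasts, 3.85%, 7.78% and 9.49% in shNC, 6.61%, 9.78% and 4.08% in shARID1A, and 6.34% and 3.48% for the differences. Contrasts with E2 in them share the E2 libraries and are not independent of each other.

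Estradiol alone left intervals around 0 for all 3 genes. Averaged over the arms, the log2 fold change of E2 against DMSO was 0.00 for CDKN1A (95% interval -0.10 to 0.10), 0.11 for GDF15 (-0.11 to 0.33, and 0.036 without the first shNC E2 library) and 0.02 for AEN (-0.08 to 0.13), with adjusted p-values of 0.9999, 0.999 and 0.999 by edgeR's quasi-likelihood test. In folds these intervals run from 0.934 to 1.07 for CDKN1A and from 0.943 to 1.09 for AEN. Of the 3 genes, AEN was the 1 whose E2 and DMSO libraries did not overlap within an arm. Both E2 libraries lay above both DMSO libraries in shARID1A (log2 fold change 0.09, SE 0.07) and below them in shNC (-0.05, SE 0.08). Of all genes tested, 18.4% had E2 libraries above the DMSO libraries in shARID1A, 14.7% had them below in shNC, and 3.24% had both. The test of the AEN difference between arms gave 0.13 (SE 0.10, adjusted p = 0.878 by edgeR) and did not pass.

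Fulvestrant gave the lowest p-values of the treatments. E2 plus fulvestrant against E2 averaged over the arms was -0.33 for GDF15 (SE 0.11, unadjusted p = 0.00591, edgeR adjusted p = 0.174), and both fulvestrant libraries lay below both E2 libraries in each arm, as for 5.71% of all genes. In shNC the GDF15 value was -0.30 (SE 0.13, and -0.16 without the first shNC E2 library) and in shARID1A -0.37 (SE 0.18), with a difference between the arms of -0.07 (95% interval -0.53 to 0.39). The shARID1A value was -0.17 without the first and -0.61 without the second fulvestrant library of that arm. CDKN1A had -0.13 (SE 0.05, unadjusted p = 0.0144, edgeR adjusted p = 0.223) averaged over the arms. Within shARID1A the CDKN1A value was -0.21 (SE 0.07, edgeR adjusted p = 0.408), where its fulvestrant libraries lay below the E2 and the DMSO libraries (7.96% of all genes), and within shNC it was -0.05 (SE 0.07), where they overlapped. The CDKN1A difference between arms was -0.17 (95% interval -0.37 to 0.04, edgeR adjusted p = 0.9998), and -0.061 without the first shNC library with E2 plus fulvestrant. AEN had -0.02 (SE 0.05, 95% interval -0.12 to 0.09) averaged over the arms. None of these fulvestrant differences passed the test.

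**Figure D3:**
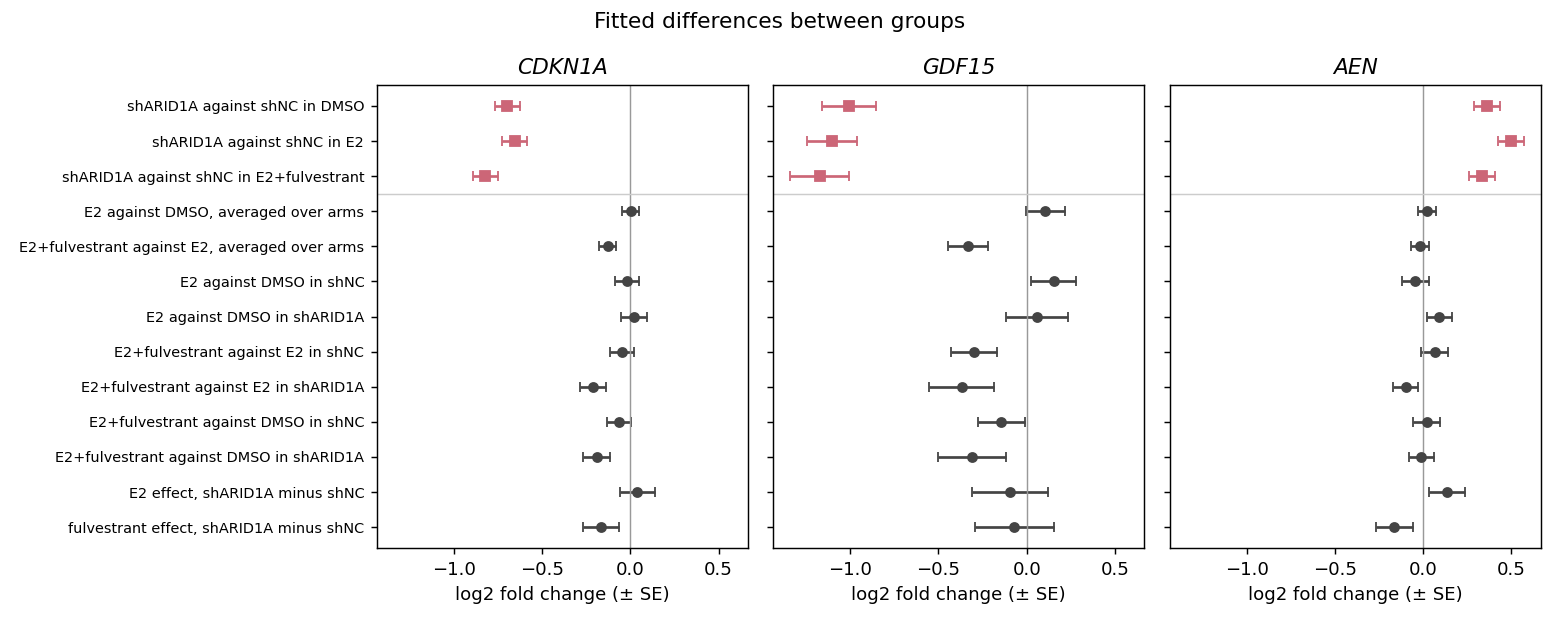
Fitted log2 fold change with its SE (bars) for each gene. Red squares are shARID1A against shNC, the contrast that chose the genes, and black circles are the 10 treatment contrasts and differences between arms. The treatment values lie between -0.37 and 0.15, and the hairpin values at -0.66 or lower for CDKN1A and GDF15 and at 0.33 or higher for AEN.

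Other p53 targets were called lower in the knockdown arm more often than higher. Of 50 further targets listed, 44 were in the files and 40 passed the filter. In DMSO edgeR called 12 of the 40 lower and 3 higher, beside 9.5% of all genes lower and 9.7% higher. In E2 it called 14 lower and 1 higher (all genes 13.8% and 13.4%), and in E2 plus fulvestrant 17 lower and 2 higher (12.8% and 11.4%). The list medians were -0.16, -0.14 and -0.17 on the log2 scale, beside -0.01, -0.02 and -0.03 over all genes. The DMSO count of lower targets was 6 without the first shARID1A DMSO library, and that of higher targets was 1 without the first or the second shNC DMSO library or the first shARID1A DMSO library. The count of lower targets in E2 plus fulvestrant was 11 without the second shNC library of that treatment. Of the 40 targets, 21 were called in at least 1 treatment, and 0 were called in opposite directions in different treatments. The shares of all genes for these counts across treatments were not computed, so nothing is read from them.

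Among these targets the autophagy regulator DRAM1 fell by 0.86 on the log2 scale in DMSO (edgeR adjusted p = 3.2e-06), the nerve injury-induced membrane protein gene NINJ1 by 0.69, the lysosome-positioning gene BLOC1S2 by 0.43 and the receptor kinase gene EPHA2 by 0.37. CMBL, a hydrolase gene, went the way of AEN, with 0.55 (SE 0.07, edgeR adjusted p = 5.02e-07) in DMSO, 0.47 in E2 and 0.42 in E2 plus fulvestrant. It was the 1 listed target called higher in all 3 treatments, at 73.6 to 80.5 CPM in shNC and 100.4 to 113.7 CPM in shARID1A. The 11 called lower in all 3 included the death genes FAS, TNFRSF10B and PMAIP1, the stress and damage genes PLK3, GADD45A and TRIAP1, and DRAM1, NINJ1, BLOC1S2 and EPHA2, of which FAS to TRIAP1 were named after their values were seen. The share of all genes called in all 3 treatments was not computed. PMAIP1, which encodes the BCL2-family protein NOXA, had -0.41, -0.59 and -0.57 in the 3 treatments. E2 and fulvestrant averaged over the arms called 0 of the 40 targets by edgeR and 0 by DESeq2.

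**Figure D4:**
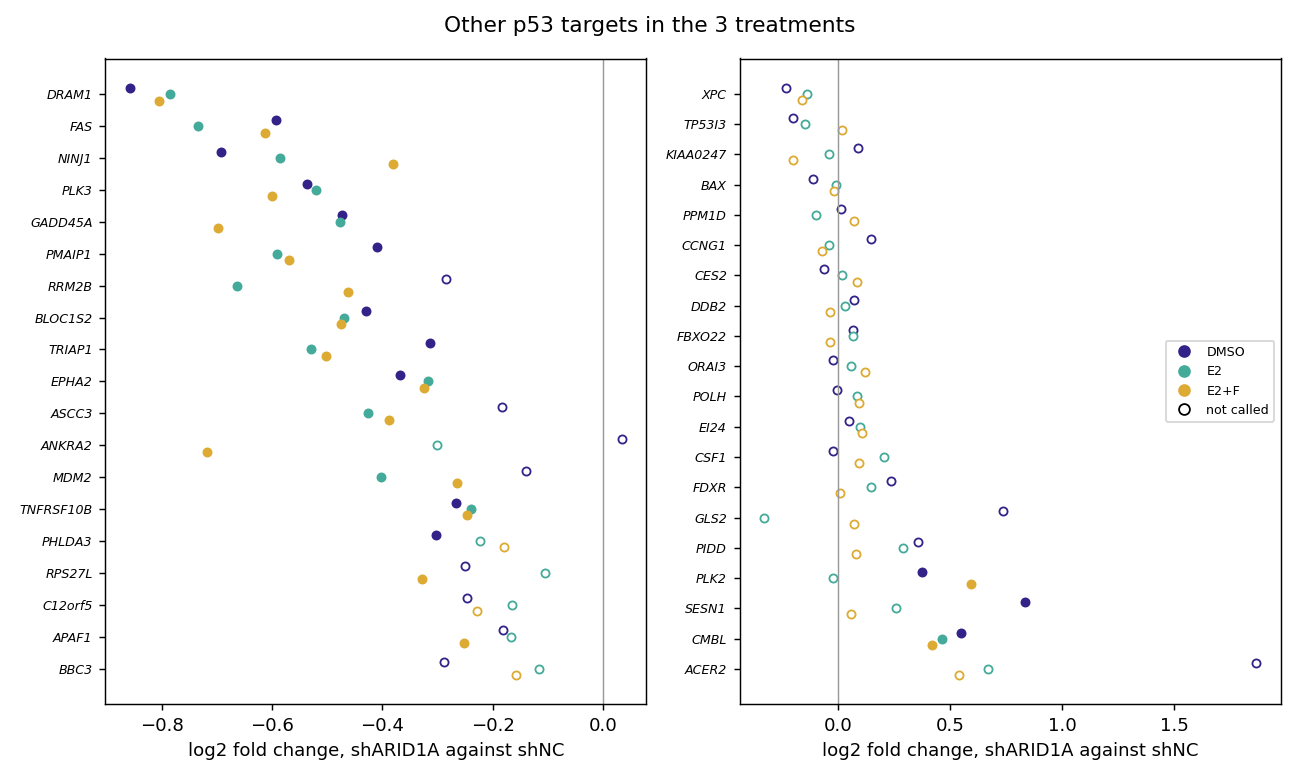
Log2 fold change of shARID1A against shNC for 39 of the 40 other p53 targets that passed the filter, ordered by their mean, lower values in the left panel. Colours are the 3 treatments, filled points were called by edgeR at an adjusted p under 0.05, and the panels have their own scales. DRAM1 has the lowest mean, and CMBL is filled in all 3 treatments on the higher side.

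Regulators of p53 were measured beside its targets. MDM2, a p53 target that marks p53 for degradation, had log2 fold changes of -0.14 in DMSO (edgeR adjusted p = 0.339), -0.40 in E2 (adjusted p = 0.00111) and -0.26 in E2 plus fulvestrant (adjusted p = 0.0338). MDM4, its partner, had -0.26, -0.24 and -0.05 and passed in none of the 3. Of 22 listed p53 regulators tested, 3 were lower and 0 higher in DMSO, 9 lower and 1 higher in E2, and 4 lower and 1 higher in E2 plus fulvestrant, with list medians of -0.06, -0.19 and -0.05. Over all genes the lower shares were 9.5%, 13.8% and 12.8%, the higher shares 9.7%, 13.4% and 11.4%, and the medians -0.01, -0.02 and -0.03. HIPK2, a kinase that phosphorylates p53, fell by 0.69 in DMSO (edgeR adjusted p = 4.61e-09), and ATR, the replication stress kinase, by 0.37 (adjusted p = 0.0063). Both were also called lower in the other treatments. RNA levels do not give the activity of p53 protein.

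Other CDK inhibitors and cell cycle partners of p21 were compared beside CDKN1A. Of 14 tested, edgeR called 2, 3 and 4 lower and 0 higher in the 3 treatments. Over all genes it called 9.5%, 13.8% and 12.8% lower and 9.7%, 13.4% and 11.4% higher. CDKN2B, which encodes the inhibitor p15, fell by 0.80 in DMSO (SE 0.17, adjusted p = 0.0006 by edgeR), by 0.81 in E2 and by 0.94 in E2 plus fulvestrant. CDK1, the mitotic kinase, fell by 0.24, 0.42 and 0.43. CDKN1B, which encodes p27, the close relative of p21, had 0.18 in DMSO (edgeR adjusted p = 0.106), and CDKN2A, listed with the p53 regulators for its product ARF, fell by 0.22 in DMSO (adjusted p = 0.0106) and was not called in the other treatments. The list medians were -0.05, -0.02 and -0.05 beside -0.01, -0.02 and -0.03 over all genes.

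Genes of the ATF4 response, the other route to GDF15, were compared beside it. Of 16 tested, 9 were lower and 3 higher in each of the 3 treatments. Over all genes 9.5%, 13.8% and 12.8% were called lower and 9.7%, 13.4% and 11.4% higher. The list medians were -0.32, -0.17 and -0.25 (all genes -0.01, -0.02 and -0.03). ATF4 itself was not analysed here. Main coding transcripts were counted only in part for SLC7A11 (8.26%), NUPR1 (8.54%), CHAC1 (29.2%), PPP1R15A (42.5%), TRIB3 (45.4%) and MTHFD2 (48%). DDIT3, which encodes the stress factor CHOP, fell by 0.46, 0.48 and 0.62 in the 3 treatments (edgeR adjusted p = 0.00981, 0.00284 and 0.0007). SLC7A11, the cystine transporter, fell by 1.13 in DMSO (adjusted p = 2.53e-06), PPP1R15A, which directs dephosphorylation of eIF2-alpha, by 0.89, TRIB3, a pseudokinase, by 0.65, CHAC1, a glutathione-degrading enzyme, by 0.53 and MTHFD2, a mitochondrial folate enzyme, by 0.47. NUPR1, a chromatin-associated stress protein, rose by 0.41 (edgeR adjusted p = 1.92e-05), and SLC3A2 and XBP1, named after their values were seen, were also called higher in all 3 treatments. TRIB3 was the 1 listed gene called by edgeR in a treatment contrast averaged over the arms, at -0.25 for E2 plus fulvestrant against E2 (SE 0.05, edgeR adjusted p = 0.0255, 0.0411% of all genes being called lower), the contrast in which GDF15 had -0.33 and did not pass. DESeq2 called TRIB3 there too, and also 1 of the p53 regulators and the epithelial marker MUC1, named after its values were seen, lower. DDIT3 had -0.21 there (edgeR adjusted p = 0.27).

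Of the GDF15 receptor and processing genes, 2 of the 5 in the files passed the filter. RET, the signalling receptor, had at most 1 count in a library. FURIN, a protease that matures TGF-beta family precursors, fell by 0.23 in DMSO (edgeR adjusted p = 0.016), and had -0.13 and -0.18 in the other treatments without passing. PCSK6, a related protease, had 0.10 in DMSO (adjusted p = 0.338).

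The relatives of AEN and other nucleases were compared beside it. Of 9 tested, 2 were higher and 1 lower in DMSO, 5 higher and 1 lower in E2, and 3 higher and 0 lower in E2 plus fulvestrant, with medians of 0.11, 0.32 and 0.19 (all genes -0.01, -0.02 and -0.03). Over all genes 9.7%, 13.4% and 11.4% were called higher and 9.5%, 13.8% and 12.8% lower. REXO4, an exonuclease of the same family, rose by 0.30, 0.46 and 0.38 (edgeR adjusted p = 0.00182, 6.05e-06 and 0.000118), from 76.8 to 85.5 CPM in shNC to 98.98 to 111.4 CPM in shARID1A. DNASE2, the lysosomal nuclease, rose by 0.25 in DMSO (adjusted p = 0.0112), and the mitochondrial nuclease gene EXOG fell by 0.46 (adjusted p = 0.0104). ISG20L2, the nucleolar relative of AEN, had 0.11, -0.01 and -0.04 and was not called in any treatment. Calls for these 9 genes by E2 or fulvestrant averaged over the arms numbered 0 by edgeR and 0 by DESeq2.

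**Figure D5:**
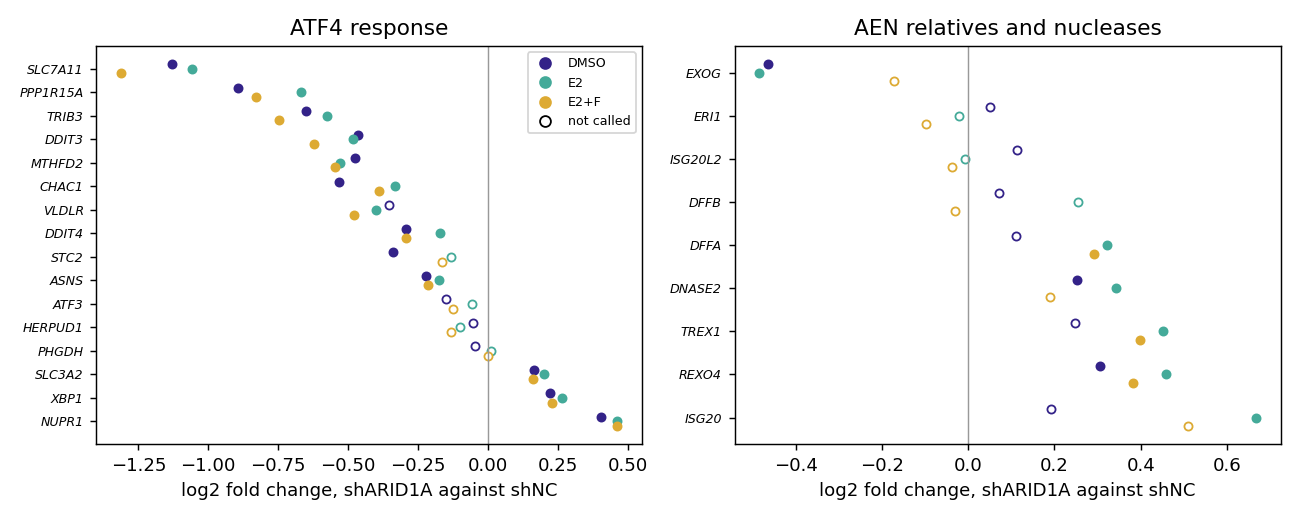
Log2 fold change of shARID1A against shNC for the 16 ATF4 response genes (left) and the 9 AEN relatives and other nucleases (right) that passed the filter. Colours are the 3 treatments, and filled points were called by edgeR at an adjusted p under 0.05. SLC7A11, counted over 8.26% of its main coding transcript, lies lowest on the left. REXO4 is filled in all 3 treatments on the right.

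Genes within 50 kb of each locus were checked, with distances taken between the outermost counted bases. For GDF15 the main coding transcript starts 11406 bases after the first counted base. PGPEP1, a peptidase gene on the same strand, ends 4804 bases before the first counted base of GDF15. It was lower with GDF15, at 12.3 to 17.5 CPM in shNC and 8.26 to 10.7 CPM in shARID1A. Its log2 fold changes were -1.02, -0.60 and -0.56 in the 3 treatments (edgeR adjusted p = 3.26e-06, 0.00112 and 0.00464). SSBP4, 30380 bases away, had 0.01, 0.26 and 0.26 and was called higher with E2 and with E2 plus fulvestrant, and ISYNA1, on the other strand, had 0.38, -0.58 and 0.08 and was not called. Beside AEN, ISG20, an interferon-stimulated exonuclease of the same family 3889 bases away, had 0.19, 0.67 and 0.51, of which the E2 value passed (adjusted p = 0.0492). ENSG00000249487.2, the other AEN neighbour, had 0 counts in all libraries. Near CDKN1A, the pseudogene LAP3P2 had 5 to 35 counts per library and RAB44 0 to 4.

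The genes closest to each member in pattern were found by the root mean square difference of log2 CPM, centred on each gene's mean, over the 12 libraries, among 9869 genes whose mean was 5 CPM or more. For CDKN1A these were PTGES (0.047), C1orf198 (0.059) and STEAP3 (0.064). For GDF15 they were BHLHE40 (0.126), IER3 (0.127) and SERPINE2 (0.131). For AEN they were NFKBIA (0.033), PRMT2 (0.036) and MRPL49 (0.038). As the distance spans both arms, this likeness is tied to the hairpin difference that chose the members. The distances for GDF15 were larger than for the other members, as was its spread within groups. PTGES, for example, stood at 31.6 to 37.5 CPM in shNC and 18.2 to 22.6 CPM in shARID1A, and NFKBIA at 34.7 to 38.8 and 45.9 to 52.5 CPM.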

How the data were processed

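Poly(A) RNA of 12 libraries was sequenced with a TruSeq mRNA kit, per the labels' protocols. The deposited values are raw counts of reads per gene, and the authors applied no normalization to them, per the file headers and values. Per the submitters' processing notes, trimming used Trim Galore and cutadapt, quality control FastQC and alignment to hg19 Subread 2.0.0. Per the file headers, exons were summed by gene in featureCounts 2.0.0 without strand, pair or multi-mapping options, so genes that overlap on opposite strands cannot be told apart. The labels name no batch.

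The fit used edgeR 4.0.16 (R 4.3.3), with 1 mean per group over all 12 libraries, TMM factors and filterByExpr by group, which kept 17020 genes. Contrasts were tested with glmQLFit and glmQLFTest, and p-values were adjusted by Benjamini-Hochberg over all genes kept. A gene is called at an adjusted p under 0.05. Intervals are 95% intervals of the fit. DESeq2 1.42.0, RLE factors, no filter, a replicate block, separate fits and leaving out each library were alternatives. The steps were tested on simulated data.

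The 3 genes and the gene lists were chosen with earlier results of these data known. MDM2, MDM4, ATF4 and DDIT3 were named in any case, with up to 6 genes per list with the smallest adjusted p for the hairpin in DMSO, up to 3 for each treatment averaged over the arms, 3 genes nearest in pattern, and neighbours within 50 kb. Listed genes with no matching symbol are not analysed here. A few genes tested are left unreported. Promoters came from RefSeq (GRCh38.p14) and transcripts from GENCODE 29.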

Additional observations from a re-analysis of the deposited data

How the results depend on the processing

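RLE factors, no filter, DESeq2, a replicate block and separate fits kept the direction of all 30 treatment tests of CDKN1A, GDF15 and AEN and the side of the threshold wherever they gave an adjusted p (DESeq2 gave none for 5), and kept the hairpin values within the spread between libraries. Over all alternatives, 505 adjusted p-values were computed and 0 passed, the lowest being 0.0678 for GDF15 under fulvestrant averaged over the arms, without the second shNC E2 library. Over all genes DESeq2 called 294 in that contrast and the fit with the replicate block 40, against 11 by edgeR. The counts by edgeR and DESeq2 were 1 and 18 for E2 plus fulvestrant against E2 in shARID1A, 1 and 2 in shNC, 2 and 17 against DMSO in shNC, and 5 and 16 for the difference of the E2 effect. The block gave 4, 4 and 12 in place of 1, 2 and 5 for E2 against DMSO in shNC, E2 plus fulvestrant against DMSO in shNC and the difference of the E2 effect. Deviations of same-number libraries from their group means correlated at -0.22 to 0.28 over 15 pairs of groups, and 7 were over 0.1. Whether the replicate numbers pair the libraries is not given, and these values cannot decide it. The block changed no call of the 3 genes.

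With 1 library left out, values near 0 changed sign. E2 against DMSO in CDKN1A ran from -0.027 to 0.031 averaged over the arms, -0.076 to 0.040 in shNC and -0.026 to 0.064 in shARID1A, and its difference between arms from -0.018 to 0.10. E2 plus fulvestrant in shNC ran from -0.14 to 0.021 against E2 and from -0.15 to 0.0061 against DMSO in CDKN1A. For AEN, E2 plus fulvestrant against E2 ran from -0.048 to 0.011 averaged and from -0.0066 to 0.11 in shNC, and against DMSO from -0.048 to 0.070 in shNC and from -0.069 to 0.046 in shARID1A. For GDF15, the differences between arms ran from -0.24 to 0.045 for E2 and from -0.31 to 0.13 for fulvestrant. Values that kept their sign but moved over 1.5 times included E2 against DMSO averaged in GDF15 (0.036 to 0.18) and AEN (0.0091 to 0.037), and in shNC in AEN (-0.072 to -0.015). The hairpin values in E2 plus fulvestrant ran from -0.89 to -0.73 for CDKN1A, -1.41 to -0.97 for GDF15 and 0.27 to 0.40 for AEN. The p53 targets called in DMSO ran from 1 to 4 higher and 6 to 13 lower, and those called lower in E2 plus fulvestrant from 11 to 17. The cause was not tested. With 148 to 573 counts per library over 800 counted bases, GDF15 limits what could be detected. Groups of 2 libraries limit all 3 genes.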
